A study of Mus musculus with 8 samples.

Results

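The SLC25 genes encode carriers that move metabolites across the inner mitochondrial membrane. They were taken from the deposited gene table by symbol, as every gene named Slc25a followed by a number, leaving out Slc25a15 and Slc25a20. This gave 43 of 30266 genes. Of these, 41 had enough reads to be tested and 2 did not. The livers came from male mice aged 8 weeks and labelled Mdr2-/-, given PBS as vehicle (4 libraries) or recombinant FGF21 (rFGF21) at 1.0 mg/kg (4 libraries), and taken after 4 h. Mdr2, now named Abcb4, puts phospholipid into bile, and its loss leads to cholestatic injury of the liver. Both groups carry that genotype, so no comparison with unaffected mice was made. Whether each sample came from its own animal is not stated, so the spread that the p-values rest on may be technical.

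Mitochondrial carriers are encoded in the nucleus, made in the cytosol and inserted into the inner membrane, where each exchanges or imports a narrow set of substrates. They supply the matrix with ADP, phosphate, coenzyme A and other cofactors, and they carry amino acids and carboxylates for the urea cycle, gluconeogenesis and lipid synthesis in hepatocytes. Relatives of the uncoupling proteins belong to the same family, and a few members reside in other membranes, such as Slc25a17 of peroxisomes and Slc25a46 of the outer mitochondrial membrane.

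Libraries held 62756328 to 73313449 reads and are named by group and column number. The text of the extraction protocol names retina while the tissue label is liver. The 6 hepatocyte markers summed to 62807 to 83524 CPM (read counts scaled to library size by TMM) over the 8 libraries, and 5 retina markers to at most 0.440 CPM, with Crx and Rcvrn at 0 reads. Of the 52 tested markers of hepatocytes, other liver cell types and other tissues, 0 passed the edgeR test used for the carriers. PBS library 4 stood apart: 7.96% of its reads lay on the mitochondrial chromosome, against 3.27% to 4.55% in the other 7. It was the highest or lowest PBS library for 33 of the 41 tested carriers (80.5%) and for 63.4% of all genes tested. Where the text on a carrier remarks on this library, the value without it is also given, but not for every carrier. Without it, the estimates of 17 carriers moved by over 1.5 times (9 larger and 8 smaller) and 2 changed sign, with none of the 3 that passed among them.

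Promoter sequence is shown for Slc25a42, Slc25a22 and Slc25a10, because they fell, and for Slc25a25, because its estimated difference was the largest of the family. The sequences are RefSeq's (GRCm38.p6), on the gene's own strand, and leave out annotated exons. Capitals mark the CCAAT box (CCAAT or, read on the other strand, ATTGG) and the full cyclic AMP response element (TGACGTCA, the same on both strands). Slc25a10 lies on the plus strand and the others on the minus strand. The Slc25a42 stretch is chr8:70212306-70212531, the Slc25a22 stretch chr7:141435398-141435625 (at 1 of 3 start sites) and the Slc25a10 stretch chr11:120491587-120491650, which is only 64 bases because an annotated exon covers the rest of its window. For Slc25a25, which has 3 start sites, the stretches are chr2:32431170-32431401 at the upstream one shown and chr2:32424067-32424316 at the downstream one. Windows whose first bases lie in an annotated exon are not shown.
Slc25a42: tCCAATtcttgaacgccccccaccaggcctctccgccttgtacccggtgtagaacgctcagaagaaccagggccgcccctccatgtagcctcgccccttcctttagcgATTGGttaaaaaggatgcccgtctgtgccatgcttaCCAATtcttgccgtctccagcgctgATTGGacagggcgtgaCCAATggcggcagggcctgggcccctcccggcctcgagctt
Slc25a22: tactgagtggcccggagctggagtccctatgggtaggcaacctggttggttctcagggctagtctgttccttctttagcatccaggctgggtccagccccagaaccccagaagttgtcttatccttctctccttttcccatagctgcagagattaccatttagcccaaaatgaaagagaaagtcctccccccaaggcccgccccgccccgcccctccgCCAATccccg
Slc25a10: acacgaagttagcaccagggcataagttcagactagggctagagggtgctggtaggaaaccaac
Slc25a25 upstream: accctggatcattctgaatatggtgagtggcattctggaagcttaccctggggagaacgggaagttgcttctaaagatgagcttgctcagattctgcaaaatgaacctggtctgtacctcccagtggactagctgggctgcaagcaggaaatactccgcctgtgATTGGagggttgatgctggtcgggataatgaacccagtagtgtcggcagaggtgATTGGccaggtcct
Slc25a25 downstream: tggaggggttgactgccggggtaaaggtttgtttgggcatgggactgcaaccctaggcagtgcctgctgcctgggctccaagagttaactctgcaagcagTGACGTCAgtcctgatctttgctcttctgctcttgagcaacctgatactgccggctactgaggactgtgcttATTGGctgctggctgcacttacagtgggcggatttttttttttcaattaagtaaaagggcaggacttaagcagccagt
The Slc25a42 stretch holds 5 CCAAT boxes, that of Slc25a22 holds 1 and that of Slc25a10 holds 0. At the Slc25a22 start site shown, 1 coding transcript of GENCODE release 21 starts within 50 bases. Its start sites not shown, at bases 141437874 and 141434594, have 1 and 4 such transcripts. The upstream stretch of Slc25a25 holds 2 CCAAT boxes and 0 cyclic AMP response elements, and 3 coding transcripts of GENCODE release 21 start within 50 bases of its start site. The downstream stretch holds 1 CCAAT box and the full element, which begins at position -150, and 0 such transcripts start within 50 bases of its start site. Among windows of 250 bases before all 32851 RefSeq start sites, 33.8% hold a CCAAT box and 1.55% the full element. Of 42 such windows of 33 carriers, 21 hold a CCAAT box, and 2, those of Slc25a25 and Slc25a36, hold the full element. A match describes the letters and does not show that a factor binds there.

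Levels of different genes are compared as RPKM, here the CPM of a gene per kilobase of its annotated exons. Of the 43 carriers, 15 had a mean of at least 10 RPKM over the 8 libraries, 18 lay from 1 to 10, and 10 lay under 1. The 3 highest carriers held 39.9% to 47.3% of the family's summed RPKM in each library, and the 12 highest 83.3% to 87.4%. The highest was Slc25a5, the ADP/ATP carrier ANT2, at 206 ± 37.6 and 191 ± 16.9 RPKM in PBS and rFGF21 libraries (SD, n = 4 each, as for the means that follow). Next came Slc25a39, a glutathione carrier (143 ± 3.81 and 111 ± 11.1 RPKM), and Slc25a47, a carrier of liver whose substrate is unsettled (87.1 ± 31.1 and 53.7 ± 15.6 RPKM). Further down, neighbours lay within their spread in PBS libraries, with Slc25a1 at 68.9 ± 10.6, Slc25a10 at 62.4 ± 5.08, Slc25a22 at 55.0 ± 15.7, Slc25a25 at 53.1 ± 21.1, Slc25a23 at 48.7 ± 17.6, Slc25a13 at 48.1 ± 7.71 and Slc25a3 at 46.0 ± 5.37 RPKM. Slc25a11 (35.0 ± 5.67) and Slc25a17 (18.2 ± 1.26 RPKM) completed the 12 highest. How reads shared by near-identical copies were assigned is not known, so levels of genes with processed copies in the genome, such as Slc25a5, are uncertain.

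**Figure D1:**
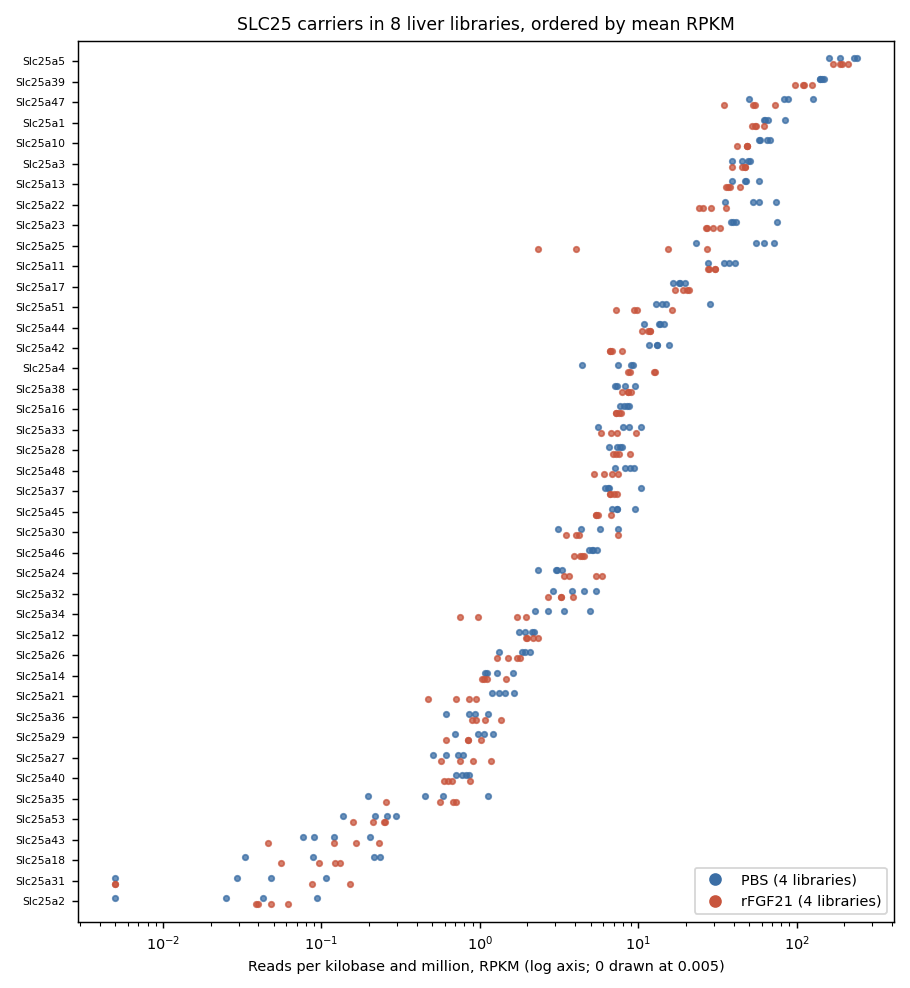
RPKM of 42 carriers (log axis) in each of 4 PBS and 4 rFGF21 libraries, 1 point per library, genes ordered by mean RPKM over all 8. Slc25a5 and Slc25a39 stand at the top and Slc25a31 and Slc25a2 at the bottom, and the rFGF21 libraries of Slc25a25 are spread widely.

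After rFGF21, 3 of 41 tested carriers fell and none rose, by edgeR's quasi-likelihood test with a Benjamini-Hochberg threshold of 0.05 over the 18315 genes tested. They were Slc25a42, Slc25a22 and Slc25a10. The carriers that fell make up 7.32% of those tested; over all genes tested 2.82% passed (1.67% fell and 1.15% rose). At an unadjusted p under 0.05, 16 carriers were lower and 2 higher, and so were 9.86% and 8.92% of all genes. Estimated log2 fold changes lay below 0 for 32 of 41 carriers (78.0%), against 49.6% of all genes tested. Their median was -0.19, and that of all genes tested was 0.003. By CPM, the groups did not overlap for 8 carriers that were lower and 1 that was higher, and over all genes tested this held for 6.39% and 5.9%. DESeq2 called 9 carriers lower and 1 higher, where it called 5.21% and 4.45% of its genes, and limma on log2(RPKM + 1) called Slc25a42 alone. Without PBS library 4, edgeR called 4 carriers, with Slc25a23 added. It called 2 without rFGF21 library 2 and 1 without any of the other 6 libraries, each time including Slc25a42.

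**Figure D2:**
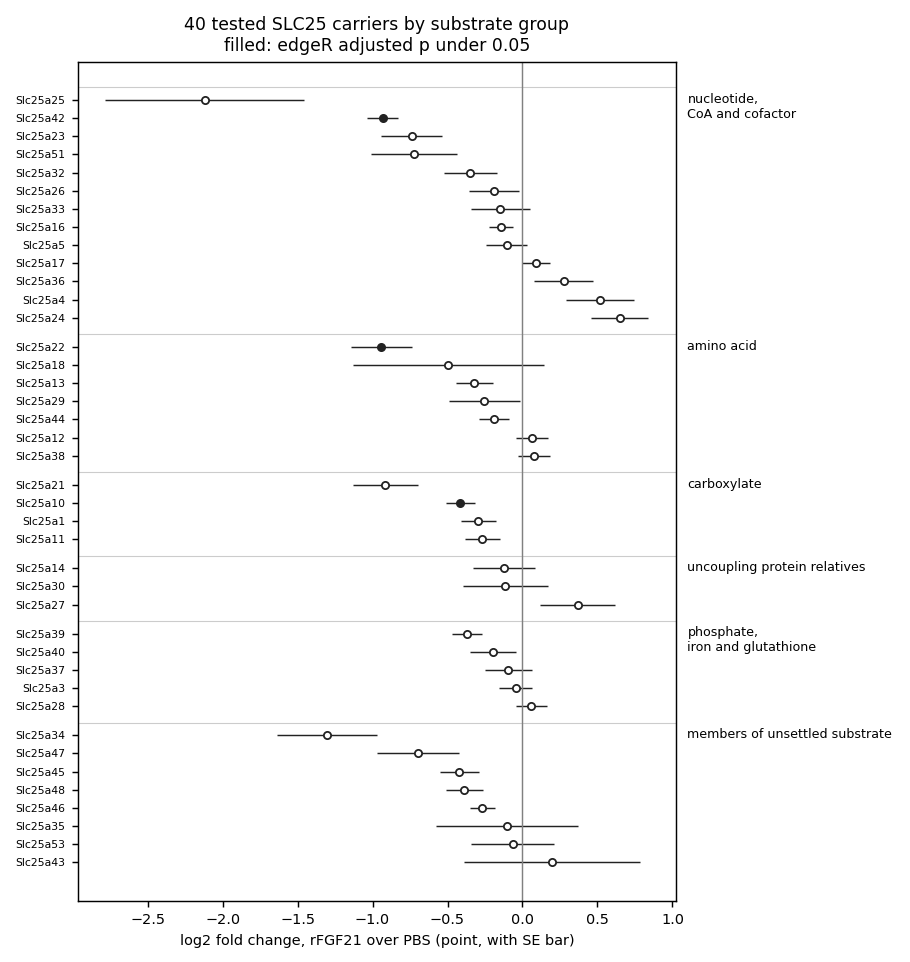
Log2 fold change of rFGF21 over PBS with its SE for 40 tested carriers, by substrate group; filled points passed the edgeR test. Slc25a42 (-0.93), Slc25a22 (-0.94) and Slc25a10 (-0.42) are filled, and Slc25a25 (-2.12) lies farthest from 0 with a wide bar.

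The summed CPM of the 43 carriers, given without a test, was 3685, 3468, 3018 and 3939 in PBS libraries 1, 2, 4 and 5 and 2558, 2745, 2462 and 2195 in rFGF21 libraries 1, 2, 3 and 5. The groups did not overlap, and PBS library 4 was the lowest of its group. Without Slc25a25, Slc25a22, Slc25a23 and Slc25a47, which had the largest estimates among the 12 highest carriers and were picked after their values were seen, the sums ran from 2079 to 2428 CPM in PBS and from 1748 to 1969.6 CPM in rFGF21 libraries, again apart. Summed by substrate, amino acid carriers were at 99.3 to 158 RPKM in PBS and 83.4 to 96.3 RPKM in rFGF21 libraries. Carboxylate carriers were at 159 to 173 RPKM in PBS and 125 to 142 RPKM in rFGF21 libraries. Nucleotide, coenzyme A and cofactor carriers were at 333 to 438 RPKM in PBS and 275 to 325 RPKM in rFGF21 libraries, and phosphate, iron and glutathione carriers at 198 to 209 RPKM in PBS and 151 to 184 RPKM in rFGF21 libraries. In these 4 sums the groups were apart, but single carriers weigh on them. Slc25a22 was at a mean of 55.0 and 28.6 RPKM in PBS and rFGF21 libraries, within mean amino acid sums of 128 and 90.3. Slc25a39 was at 143 and 111 RPKM within phosphate, iron and glutathione sums of 204 and 170. Slc25a25 (53.1 and 12.2) and Slc25a23 (48.7 and 29.2 RPKM) belong to nucleotide, coenzyme A and cofactor sums of 392 and 307. Sums without these carriers are not given, so no group is shown lower as a whole. By CPM of single carriers, the groups were apart and lower for 0 of 7 tested amino acid carriers, 2 of 4 carboxylate carriers and 1 of 5 phosphate, iron and glutathione carriers. Of 14 nucleotide, coenzyme A and cofactor carriers, 2 were apart and lower and 1 was apart and higher. Over all genes tested, 6.39% were apart and lower and 5.9% apart and higher. The sums of carriers of unsettled substrate (75.1 to 152 RPKM in PBS and 53.0 to 92.6 RPKM in rFGF21 libraries) overlapped, as did those of the relatives of uncoupling proteins (4.99 to 9.63 RPKM in PBS and 5.29 to 9.05 RPKM in rFGF21 libraries). In whole liver, fewer cells of a type and less RNA per cell cannot be told apart. Markers of hepatocytes summed to 63959 to 83524 CPM in PBS and 62807 to 78656 CPM in rFGF21 libraries, overlapping, with 0 of 6 passing and none at 0.

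Carriers of nucleotides, coenzyme A and cofactors had 14 tested members, of which 1 fell and none rose (DESeq2 called 3 lower and 1 higher), with a median log2 fold change of -0.16. Over all genes, edgeR called 1.67% lower and 1.15% higher, and DESeq2 called 5.21% and 4.45% of its genes. Slc25a42 exchanges coenzyme A for adenine nucleotides and so brings coenzyme A into the matrix (ENSMUSG00000002346, chromosome 8, 70184340 to 70212305, GRCm38). Its level was 70.0, 78.9, 78.4 and 93.2 CPM in PBS libraries 1, 2, 4 and 5 and 39.98, 47.3, 39.7 and 40.97 CPM in rFGF21 libraries 1, 2, 3 and 5. All rFGF21 libraries lay below all PBS libraries. The fall was 1.91-fold, a log2 fold change of -0.93 ± 0.10 (SE, n = 4 each, edgeR adjusted p = 0.00504). It passed whichever library was left out, with edgeR adjusted p from 0.00901 to 0.0248. Slc25a16, also linked to coenzyme A transport, stood at 39.6 ± 2.18 and 35.9 ± 1.35 CPM (-0.14 ± 0.08, edgeR adjusted p = 0.365). Of the summed RPKM of this pair, Slc25a42 made up 60.0% to 64.7% in PBS and 46.5% to 52.0% in rFGF21 libraries, without overlap.

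The ATP-Mg/phosphate carriers exchange adenine nucleotides for phosphate in response to calcium and so set the adenine nucleotide content of the matrix. Slc25a25 (ENSMUSG00000026819, chromosome 2, 32414487 to 32451422) was at 564, 434, 181 and 490.2 CPM in PBS libraries 1, 2, 4 and 5 and 121, 213, 18.4 and 31.9 CPM in rFGF21 libraries 1, 2, 3 and 5. PBS library 4 lay below rFGF21 library 2, so the groups overlapped, and the rFGF21 libraries differed widely among themselves. The estimated difference was 4.34-fold, a log2 fold change of -2.12 ± 0.66 (SE, n = 4 each) that did not pass (edgeR adjusted p = 0.1199, DESeq2 0.0445). Without PBS library 4 the groups were apart and the log2 fold change was -2.37 ± 0.68 (edgeR adjusted p = 0.106). It was -2.86 without rFGF21 library 2 (edgeR adjusted p = 0.0613) and -1.77 without rFGF21 library 3 (0.163). Of its exon bases, 356 (4.54%) are shared with Naif1 on the opposite strand.

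Slc25a23, of the same subfamily, was at 219, 209.7, 398 and 205 CPM in PBS libraries and 174, 142, 145 and 156 CPM in rFGF21 libraries, in the same order. The rFGF21 libraries all lay below the PBS libraries, and PBS library 4 was far above the other 3. Its log2 fold change was -0.74 ± 0.20 (edgeR adjusted p = 0.0843, DESeq2 0.00572). Without PBS library 4 it was -0.45 ± 0.09 and passed (edgeR adjusted p = 0.0412). Slc25a24, also of this subfamily, had an estimate of the opposite sign, at 10.5, 11.3, 7.99 and 10.4 CPM in PBS libraries and 18.5, 12.5, 11.7 and 20.3 CPM in rFGF21 libraries. The groups did not overlap, and the log2 fold change of 0.65 ± 0.19 did not pass (edgeR adjusted p = 0.104, DESeq2 0.0214). Markers of stellate cells and fibroblasts summed to 708 to 981 CPM in PBS and 884 to 1389 CPM in rFGF21 libraries, with overlap, with 0 of 7 passing and none at 0. Markers of T, B and NK cells summed to 4.86 to 5.83 CPM in PBS and 6.16 to 7.21 CPM in rFGF21 libraries, without overlap, with 0 of 6 passing and none at 0. Markers of cholangiocytes summed to 171 to 265 CPM in PBS and 237 to 368 CPM in rFGF21 libraries, with overlap, with 0 of 6 passing and none at 0. Estimates lay above 0 for all 6 cholangiocyte markers, for 6 of the 7 stellate and fibroblast markers and for 5 of the 6 T, B and NK cell markers. The sums of these cell types, like Slc25a24 itself, were highest in rFGF21 libraries 1 and 5. Estimates also lay above 0 for the 5 tested neutrophil and the 5 tested erythroid markers. The neutrophil sum was highest in rFGF21 library 5 and the erythroid sum in rFGF21 library 2. Markers of Kupffer cells and macrophages summed to 391 to 607 CPM in PBS and 306 to 493 CPM in rFGF21 libraries. Endothelial markers summed to 85.1 to 175 CPM in PBS and 79.5 to 150 CPM in rFGF21 libraries. Both overlapped, and both were lowest in rFGF21 libraries 1 and 5. In each of these lists, 2 estimates lay above 0 and 4 below, with 0 of 6 passing. The part of these cell types in the Slc25a24 values was not tested.

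**Figure D3:**
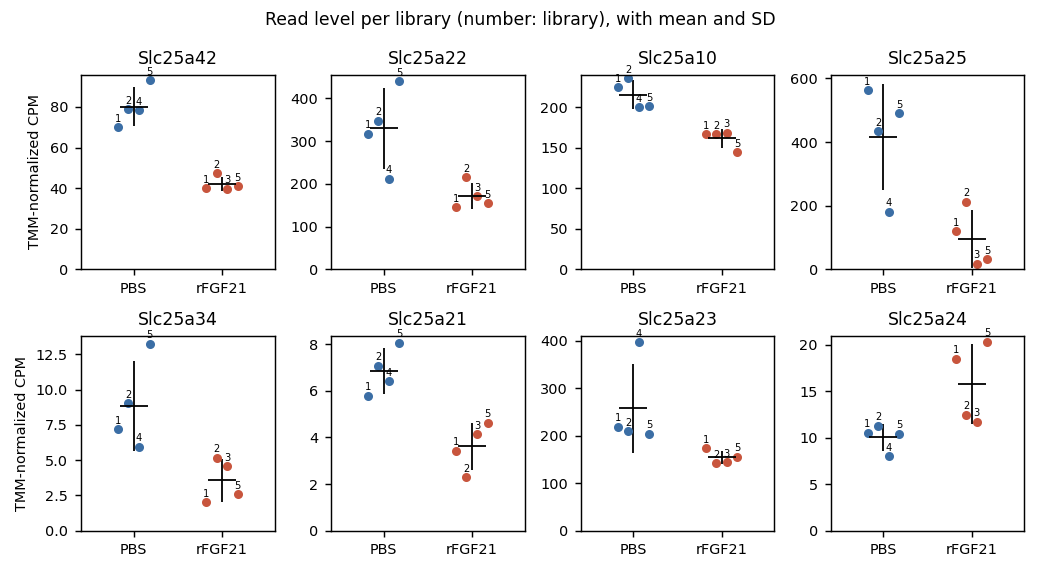
TMM-normalized CPM of 8 carriers in each library, with the library number at each point and the mean with SD bars; each axis starts at 0. Groups are apart for Slc25a42, Slc25a10, Slc25a34, Slc25a21, Slc25a23 and Slc25a24, while PBS library 4 lies among the rFGF21 libraries for Slc25a25 and Slc25a22.

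The ADP/ATP carriers supply the cytosol with ATP made in mitochondria. Slc25a5 was at 397, 309.7, 265 and 381 CPM in PBS libraries and 319, 309.7, 348 and 281 CPM in rFGF21 libraries, with overlap (-0.11 ± 0.14, edgeR adjusted p = 0.737). With a library left out, its log2 fold change ran from -0.20 to -0.015. Slc25a4 (ANT1), prominent in heart and muscle, was at 21.7, 21.2, 10.3 and 17.4 CPM in PBS libraries and 29.8, 20.3, 20.8 and 30.2 CPM in rFGF21 libraries. PBS library 4 was its lowest, the groups overlapped, and the log2 fold change was 0.52 ± 0.23 (edgeR adjusted p = 0.247) and 0.33 ± 0.17 without that library (edgeR adjusted p = 0.315). Like the marker sums of cholangiocytes, of stellate cells and of T, B and NK cells given above, Slc25a4 was highest in rFGF21 libraries 1 and 5. The sums of Kupffer cell and endothelial markers were lowest there. The part of those cells in the Slc25a4 values was not tested. Of the pair's summed RPKM, Slc25a5 made up 95.4% to 97.3% in PBS and 93.0% to 96.0% in rFGF21 libraries, which overlapped. Skeletal muscle markers summed to at most 0.865 CPM in any library, with Myh4 at 0 reads and 0 of the 1 tested passing. Slc25a31, the ADP/ATP carrier of testis, had 27 reads over the PBS and 37 over the rFGF21 libraries and was not tested.

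Among the remaining cofactor carriers, Slc25a51, which imports NAD, was at 77.3, 82.4, 71.7 and 157 CPM in PBS libraries and 54.0, 89.8, 51.5 and 39.8 CPM in rFGF21 libraries. PBS library 5 was the highest by far. The log2 fold change was -0.73 ± 0.29 (edgeR adjusted p = 0.206) and -0.38 without that library. Slc25a17, the cofactor carrier of peroxisomes, was at 51.8 ± 3.58 and 55.1 ± 5.05 CPM (0.09 ± 0.09, edgeR adjusted p = 0.657). The pyrimidine nucleotide carriers Slc25a33 (15.5 ± 3.79 and 14.0 ± 3.07 CPM) and Slc25a36 (8.47 ± 2.05 and 10.3 ± 1.97 CPM) did not pass (edgeR adjusted p = 0.747 and 0.493). Of that pair's summed RPKM, Slc25a36 held 9.61% to 9.85% in PBS and 10.1% to 18.8% in rFGF21 libraries, where rFGF21 library 5 was the highest. For Slc25a33, 14.9% of exon bases are shared with an antisense gene. The carriers of S-adenosylmethionine (Slc25a26) and folate (Slc25a32) had log2 fold changes of -0.19 ± 0.17 and -0.35 ± 0.18 without passing.

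Amino acid carriers had 7 tested members, of which 1 fell and none rose (DESeq2 also called 1 lower), with a median log2 fold change of -0.25. Among all genes, 1.67% were called lower by edgeR and 5.21% by DESeq2. Slc25a22 imports glutamate together with a proton into the matrix, where glutamate dehydrogenase acts (ENSMUSG00000019082, chromosome 7, 141429744 to 141437892). It was at 318, 348, 212 and 441 CPM in PBS libraries 1, 2, 4 and 5 and 145, 215, 172 and 154 CPM in rFGF21 libraries 1, 2, 3 and 5. PBS library 4 lay just below rFGF21 library 2, and the other 3 PBS libraries lay above every rFGF21 library. The log2 fold change was -0.94 ± 0.20 (SE, n = 4 each, edgeR adjusted p = 0.0393), a 1.92-fold fall. Without PBS library 4 it was -1.10 (edgeR adjusted p = 0.0120), and without rFGF21 library 2 it was -1.06 (0.0442). Leaving out any of the other 6 libraries ended the call, with edgeR adjusted p from 0.0796 to 0.122. Its paralog Slc25a18 had at most 0.451 CPM in any library, and Slc25a22 made up 99.4% or more of the pair's summed RPKM.

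The aspartate/glutamate carriers export aspartate for the urea cycle and for the malate-aspartate shuttle. Slc25a13 (citrin), the liver form, was at 182, 179, 149 and 221 CPM in PBS libraries and 136, 144, 166 and 139.9 CPM in rFGF21 libraries. The groups overlapped through PBS library 4 and rFGF21 library 3, and the log2 fold change was -0.32 ± 0.12 (edgeR adjusted p = 0.195). It was -0.40 without PBS library 4 and -0.21 without PBS library 5. Slc25a12 (aralar) was at 14.8 ± 1.46 and 15.4 ± 1.26 CPM (0.06 ± 0.11, edgeR adjusted p = 0.812). Of this pair's summed RPKM, Slc25a13 held a mean of 96.0% ± 0.331 in PBS and 94.8% ± 0.758 in rFGF21 libraries, and the nearest libraries of the groups stood at 95.66% (PBS library 2) and 95.65% (rFGF21 library 3). Slc25a44, a carrier of branched-chain amino acids, and Slc25a29, of basic amino acids, had log2 fold changes of -0.19 ± 0.10 and -0.25 ± 0.24, and Slc25a38, a glycine carrier needed for heme synthesis, of 0.08 ± 0.11, none passing. Slc25a2, an ornithine carrier, had 15 reads over the PBS and 19 over the rFGF21 libraries and was not tested.

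**Figure D4:**
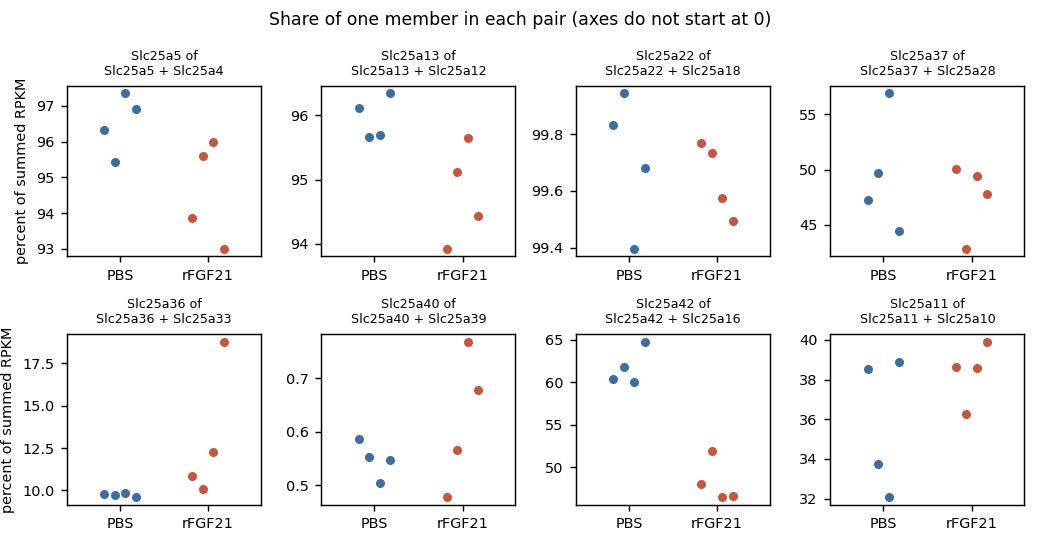
Share of 1 member in the summed RPKM of each pair of related carriers, in percent (axes do not start at 0), 1 point per library. The share of Slc25a42 (with Slc25a16) was 60.0% to 64.7% in PBS and 46.5% to 52.0% in rFGF21 libraries.

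All 4 carboxylate carriers had estimates below 0, as did 49.6% of all genes tested. Of these carriers 1 fell (DESeq2 called 2 lower), and their median log2 fold change was -0.35. Among all genes, 1.67% were called lower by edgeR and 5.21% by DESeq2. Slc25a10, the dicarboxylate carrier, exchanges malate or succinate for phosphate (ENSMUSG00000025792, chromosome 11, 120491840 to 120499187). It was at 225, 236, 200.4 and 202 CPM in PBS libraries 1, 2, 4 and 5 and 167, 167, 169 and 144 CPM in rFGF21 libraries 1, 2, 3 and 5. All rFGF21 libraries lay below all PBS libraries. The log2 fold change was -0.42 ± 0.10 (SE, n = 4 each, edgeR adjusted p = 0.0492), a 1.33-fold fall near the threshold. The call held without PBS library 4 (edgeR adjusted p = 0.0429) and ended without any other library (0.0709 to 0.135), and also with upper-quartile scaling (0.0531). An antisense gene shares 6.60% of its exon bases.

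Slc25a21, which carries oxoadipate from the breakdown of lysine and tryptophan, was at 5.78, 7.08, 6.41 and 8.06 CPM in PBS libraries and 3.44, 2.30, 4.14 and 4.63 CPM in rFGF21 libraries. The groups were apart, and the log2 fold change of -0.91 ± 0.22 lay just outside the threshold (edgeR adjusted p = 0.0542, DESeq2 0.00195). Slc25a1, the citrate carrier that supplies cytosolic acetyl-CoA for lipid synthesis, was at 143, 136, 183 and 134 CPM in PBS libraries and 136, 113, 119 and 118 CPM in rFGF21 libraries. PBS library 4 was its highest, the groups overlapped, and the log2 fold change was -0.29 ± 0.12 (edgeR adjusted p = 0.206) and -0.18 ± 0.09 without that library (edgeR adjusted p = 0.304). Slc25a11, the oxoglutarate/malate carrier of the malate-aspartate shuttle, was at 74.3 ± 12.01 and 61.7 ± 3.61 CPM (-0.27 ± 0.12, edgeR adjusted p = 0.246). With a library left out, its log2 fold change ran from -0.37 to -0.18 (edgeR adjusted p from 0.0536 to 0.461).

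The relatives of uncoupling proteins had 3 tested members, and 0 passed edgeR's test (0 at an unadjusted p under 0.05, and 0 with DESeq2). Slc25a30, also called KMCP1, was at 19.8, 26.4, 14.3 and 34.3 CPM in PBS libraries and 19.2, 33.9, 16.1 and 18.4 CPM in rFGF21 libraries, a wide spread in both groups. Slc25a27 (UCP4), best known from brain, was at 2.59 ± 0.493 and 3.34 ± 1.018 CPM (0.37 ± 0.25, edgeR adjusted p = 0.468), and Slc25a14 (UCP5) at 3.00 ± 0.590 and 2.76 ± 0.477 CPM (-0.12 ± 0.21). Ucp2, which the symbol rule does not take in, was at 102 ± 12.6 and 114 ± 7.49 CPM (0.16 ± 0.10, edgeR adjusted p = 0.450).

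Carriers of phosphate, iron and glutathione had 5 tested members, and 0 passed edgeR's test. At an unadjusted p under 0.05 by edgeR 1 was lower (9.86% of all genes), and DESeq2 called 1 lower (5.21% of all its genes). In both cases it was Slc25a39, at 397, 408, 387 and 385 CPM in PBS libraries and 343, 303, 307 and 268 CPM in rFGF21 libraries. The groups were apart with little spread in PBS, and the log2 fold change was -0.37 ± 0.10 (edgeR adjusted p = 0.0747, DESeq2 0.00382). Its paralog Slc25a40 held at most 0.769% of the pair's summed RPKM. Slc25a3, which imports phosphate for ATP synthesis and copper for cytochrome oxidase, was at 255 ± 29.8 and 247 ± 20.2 CPM (-0.05 ± 0.11, edgeR adjusted p = 0.870). The mitoferrins import iron, Slc25a37 chiefly in erythroid cells and Slc25a28 in other cells. Slc25a37 was at 39.6, 38.7, 62.4 and 37.0 CPM in PBS libraries and 42.1, 39.98, 44.4 and 40.02 CPM in rFGF21 libraries. PBS library 4 lay far above the rest, and the log2 fold change of -0.09 ± 0.16 was 0.12 without it. Slc25a28 was at 27.6 ± 2.24 and 28.7 ± 3.12 CPM (0.06 ± 0.10). Erythroid markers summed to 259 to 369 CPM in PBS and 375 to 665 CPM in rFGF21 libraries, without overlap, with 0 of 5 tested passing and none of the 6 at 0, and their part in the Slc25a37 and Slc25a39 values was not tested.

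Of 8 members whose substrate is unsettled, 0 passed edgeR's test and DESeq2 called 2 lower, against 5.21% of all its genes. Their median log2 fold change was -0.33. At an unadjusted p under 0.05 by edgeR, 5 were lower and 0 higher, against 9.86% and 8.92% of all genes tested. Slc25a34 had the largest estimate here, at 7.20, 9.03, 5.95 and 13.3 CPM in PBS libraries and 2.01, 5.19, 4.57 and 2.59 CPM in rFGF21 libraries. The groups were apart, and the log2 fold change of -1.30 ± 0.33 did not pass (edgeR adjusted p = 0.0654, DESeq2 0.00161). Slc25a47 was at 265, 249.6, 149 and 376 CPM in PBS libraries and 162, 218, 157 and 104 CPM in rFGF21 libraries. Both groups spread widely and overlapped through PBS library 4 (-0.70 ± 0.27, edgeR adjusted p = 0.196, and -0.89 and 0.0757 without that library). Without PBS library 5, its highest, the log2 fold change was -0.45 (edgeR adjusted p = 0.396). Slc25a45 (-0.42 ± 0.13), Slc25a48 (-0.39 ± 0.12) and Slc25a46, tied to mitochondrial shape (-0.27 ± 0.09), did not pass (edgeR adjusted p = 0.111, 0.129 and 0.128). The groups were apart for Slc25a45 and Slc25a46 and overlapped for Slc25a48. Slc25a35, Slc25a43 and Slc25a53 lay under 1 RPKM and had estimates within their SE.

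**Figure D5:**
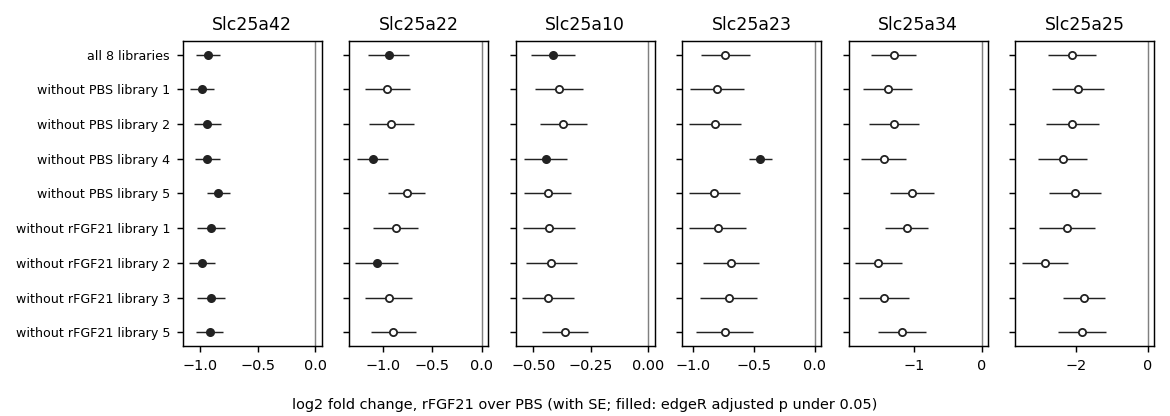
Log2 fold change with SE for 6 carriers in all 8 libraries and with each library left out; filled points passed the edgeR test. Slc25a42 is filled in every row, Slc25a22 in 3 and Slc25a10 in 2, and Slc25a23 is filled without PBS library 4, at -0.45.

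Genes around the carriers were read from lists of related genes. Of 17 tested mitochondrial solute carriers outside the symbol rule, Sfxn5, of the sideroflexin family of amino acid transporters, fell, from 25.4, 26.8, 21.4 and 23.3 CPM in PBS to 16.4, 16.6, 19.96 and 17.0 CPM in rFGF21 libraries (-0.47 ± 0.11, edgeR adjusted p = 0.0427). Its groups were apart, and of the 8 fits that leave out a library it passed in 2, with edgeR adjusted p of 0.0317 when PBS library 4 and 0.0464 when rFGF21 library 3 was dropped. None of the 17 rose (DESeq2 called 2 lower and 1 higher), and their median log2 fold change was -0.09. Over all genes, edgeR called 1.67% lower and 1.15% higher, and DESeq2 called 5.21% and 4.45% of its genes. Sfxn3, another sideroflexin, was higher by DESeq2 alone, at 6.67, 6.35, 5.66 and 6.39 CPM in PBS libraries and 10.1, 7.75, 8.54 and 12.7 CPM in rFGF21 libraries, with the groups apart (0.64 ± 0.16, edgeR adjusted p = 0.0669, DESeq2 0.00695). Of 13 components that import carriers into the inner membrane, 0 passed edgeR's test, with a median of -0.08. At an unadjusted p under 0.05 by edgeR 1 was lower (9.86% of all genes), and DESeq2 called 1 lower. The smallest p belonged to Timm9, a chaperone of the intermembrane space (-0.42 ± 0.13, edgeR adjusted p = 0.108), followed by Timm29, a part of the carrier translocase (-0.15 ± 0.09, 0.384).

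Of 11 enzymes of the malate-aspartate, citrate and glycerol phosphate shuttles, 0 passed edgeR's test and DESeq2 called 3 lower, against 5.21% of all its genes. At an unadjusted p under 0.05 by edgeR, 5 were lower and 0 higher, against 9.86% and 8.92% of all genes tested. All 11 estimates, with a median of -0.26, lay below 0, as did 49.6% of those over all genes tested. Gpd2, the mitochondrial glycerol phosphate dehydrogenase (-0.46 ± 0.11, edgeR adjusted p = 0.0552), and Mdh2, the mitochondrial malate dehydrogenase (-0.27 ± 0.09, 0.134), came nearest, and Gpd2 passed without PBS library 1 (0.0453). Of 10 regulators of mitochondrial biogenesis, 0 passed edgeR's test (2 were lower at an unadjusted p under 0.05, and DESeq2 called 0), with a median of -0.12. Ppargc1a, which encodes the coactivator PGC-1alpha, was at 13.6, 19.7, 31.3 and 31.2 CPM in PBS libraries and 11.5, 20.6, 14.0 and 9.39 CPM in rFGF21 libraries. The groups overlapped (-0.79 ± 0.29, edgeR adjusted p = 0.176). Esrra, a nuclear receptor that works with it, was at 45.0 ± 8.06 and 36.0 ± 2.33 CPM (-0.32 ± 0.13, edgeR adjusted p = 0.194).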

How the data were processed

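Whole-liver RNA was sequenced, per the labels' protocols, with an Illumina TruSeq kit. The submitters' processing notes name Bowtie 0.12.2 and mm8. The coordinates are not those of mm8, since 27322 of the 30177 gene identifiers present in GENCODE mouse release 21 (GRCm38) had identical coordinates there (90.5%), as did 35 of the 43 carriers, so they are printed as GRCm38. No source used here gives the counting tool or its strand setting. Per the file headers, the deposited table holds read counts. Column numbers do not match the sample numbers, so columns were assigned to groups only, 4 per group, those that also have an FPKM column. The other 10 columns of per-sample values (2 of counts, 8 of FPKM) were not used. RPKM was computed from the counts, TMM scaling and the union of exons in GENCODE release 21 (43 of 43 carriers have one). The design had named FPKM for levels and for the limma alternatives, and RPKM replaced it.

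edgeR 4.0.16 (R 4.3.3) was run on the counts with filterByExpr, TMM, glmQLFit and glmQLFTest, two-sided, without covariates, and p-values were adjusted by Benjamini-Hochberg over 18315 genes at a threshold of 0.05. SE is the log2 fold change over the root of F. Alternatives were DESeq2 1.42.0, limma 3.58.1 on log2(RPKM + 1) with other pseudocounts and filters, other scalings, filters and dispersions, and leaving out each library. On simulated counts for 17879 genes, 50 were changed at each of 4 folds. This comparison recovered 14 genes at 1.5-fold, 38 at 2-fold, 49 at 4-fold and 49 at 8-fold, with 9 false calls among 159 in all. No pair of libraries was as alike as sampling noise (chi-square per degree of freedom at least 47.1). Members, substrate groups and related lists were chosen with earlier results of these data known. Named genes are carriers that passed, the 12 highest by level, up to 4 per group with the smallest p, fixed pairs, carriers too low to test, and related genes that passed or came nearest. Slc25a26, Slc25a32, Slc25a35, Slc25a38, Slc25a43, Slc25a51, Slc25a53, Ucp2 and Sfxn3 were added after their values were seen. Another carrier is counted but not reported here.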

Additional observations from a re-analysis of the deposited data

Results flagged for a closer look

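Among 98 groups of 4 libraries (40 tested carriers and 9 related genes, each in both treatments), 6 held a library whose distance from the nearest other was over 82.9% of the group's range, where chance gives about 1 in 20. PBS library 4 was that library for Slc25a23 (398 CPM) and for Slc25a37 (62.4 CPM), in both cases the highest. PBS library 5 was that library for Slc25a51, the highest at 157 CPM. In rFGF21 library 5, Slc25a10 was lowest at 144 CPM and Slc25a45 highest at 18.6 CPM. In rFGF21 library 2, Slc25a42 was highest at 47.3 CPM, still below every PBS library.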

How the results depend on the processing

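The call of Slc25a42 held in 18 of 19 alternatives (all but the block described last, edgeR adjusted p = 0.0785), that of Slc25a22 in 8 and that of Slc25a10 in 5. The limma fits on RPKM were chosen after seeing the data, in place of planned fits on the deposited FPKM. Those fits were made but are not reported, because columns known only by group were used for 1 measure per library, the counts. The count of carriers that changed, 3 in the reported fit, was 10 with DESeq2, 1 in each of the 3 limma fits and without a filter on low counts, and 1 to 4 with a library left out. Over all genes it was 516, against 1527 with DESeq2 (703 higher, 824 lower), 333 and 327 with limma at pseudocounts of 1 and 0.1 and 134 without its filter, 198 without a filter on low counts, and 131 to 486 with a library left out. DESeq2 called 4 nucleotide and cofactor carriers, 2 carboxylate carriers, 1 phosphate, iron and glutathione carrier, 2 of unsettled substrate, 3 other solute carriers, 1 import component and 3 shuttle enzymes. The limma fits and the fit without a filter on low counts called 0 amino acid carriers, 0 carboxylate carriers and 0 other solute carriers. Upper-quartile scaling called 0 carboxylate carriers, and robust dispersion 2 of them, 2 other solute carriers and 1 shuttle enzyme. With a library left out, the count was 1 to 2 for nucleotide and cofactor carriers, 0 to 1 for amino acid carriers, carboxylate carriers and shuttle enzymes, and 0 to 2 for other solute carriers. The cause of these shifts was not tested.

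Small estimates changed sign with a library left out: log2 fold changes ran from -0.12 to 0.011 for Slc25a3, -0.0098 to 0.10 for Slc25a28, -0.16 to 0.12 for Slc25a37, -0.40 to 0.13 for Slc25a30, -0.25 to 0.025 for Slc25a14, -0.39 to 0.41 for Slc25a35, -0.24 to 0.086 for Slc25a53 and -0.14 to 0.55 for Slc25a43. Slc25a35 was also at 0.021 with limma at a pseudocount of 0.1. Column numbers 1, 2 and 5 occur in both groups. Libraries sharing a number had correlations of 0.12, -0.12 and -0.18 between their deviations from the group mean. Those of libraries with unlike numbers ran from -0.10 to 0.23. So few correlations cannot decide whether the numbers pair the libraries. With the replicate block over those 6 libraries, 12 genes were called, with 0 carriers in all, 0 in each substrate group and 0 other solute carriers, and Slc25a37 was at 0.083 and Slc25a35 at 0.31. The same 6 libraries without the block gave 281 genes, 0 carboxylate carriers, 2 other solute carriers and log2 fold changes of 0.083 for Slc25a37 and 0.30 for Slc25a35. At this depth and number of libraries, most changes of 1.5-fold would not pass, so a carrier that did not pass is not shown to be level.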

Other observations

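Slc25a29 and Slc25a47 lie next to each other on chromosome 12, on opposite strands with 163 bases between them and no other gene of the table between. Their levels were far apart, with Slc25a47 at 87.1 ± 31.1 RPKM and Slc25a29 at 0.988 ± 0.215 RPKM in PBS libraries (SD, n = 4). Slc25a43 and Slc25a5 lie 18449 bases apart on chromosome X, with 1 other gene of the table between, at 0.122 ± 0.0567 and 206 ± 37.6 RPKM in PBS libraries.

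In the windows of 250 bases before RefSeq start sites, the GC box (GGGCGG, either strand) was held by 29 of 42 windows of the carriers (69.0%) and 32.7% of all windows. The E-box CACGTG was held by 7 of the 42 and 6.02% of all windows, and the ETS core CCGGAAG (either strand) by 4 and 6.91%. The FOXO motif GTAAACA (either strand) was held by 0 of the 42 and 3.17% of all windows. Windows of 1 gene can overlap, base composition was not matched, and these shares carry no test.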
